A study of Mus musculus with 9 samples.

Results

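The genes described here are 42 DNA repair and damage checkpoint genes, taken as a list of symbols and joined by gene ID to the deposited counts of 54838 mouse genes. They fall into 15 genes of homologous recombination, 6 of the Fanconi anaemia path, 2 of mismatch repair, 8 of base excision and single-strand break repair, 4 of nucleotide excision repair, 3 of end joining and 4 checkpoint kinases. All 42 were found in the files, and all 42 had enough counts to be tested.

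The series compared transcripts of cells kept in medium alone with cells kept for 5 h in medium holding 600 µM hypochlorous acid (HOCl), the chlorine oxidant that neutrophils make. B16F10 is a melanoma line from C57BL/6 mice, and it gave 3 untreated and 3 HOCl libraries. CD8+ T cells, taken from spleens of adult C57BL/6 mice with an isolation kit, gave 2 untreated libraries and 1 HOCl library. No group carried a gene deletion or transgene in the labels, and whether mice were pooled is not given in the sources used here. The labels do not tell whether replicates were separate cultures or mice, and the p-values thus reflect spread among libraries that may be technical repeats.

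Cells mend broken and altered bases by several routes. Homologous recombination copies the lost stretch from the sister chromatid, the Fanconi proteins unhook crosslinked strands before that copying, and end joining ties broken ends together without a template. Base excision removes single oxidised or deaminated bases, the main kind of base damage left by oxidants, nucleotide excision cuts out bulky lesions, and mismatch repair corrects copying errors, while the checkpoint kinases hold the cell cycle until repair is done. Many recombination, Fanconi and mismatch genes are transcribed mainly in dividing cells, in part through E2F factors.

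Depth was 45.9 to 61.3 M gene counts per B16F10 library, 49.9 and 52.1 M for the untreated T cells, and 12.8 M for the HOCl-treated T cells. Levels below are counts per 1000000 of the library total (CPM), and intervals and floors cover counting error only. Summed melanocyte markers stood between 24160 and 25190 CPM in the 6 B16F10 libraries. Summed T cell markers stood between 13.8 and 17.5 CPM in 5 of those libraries and at 61.1 CPM in HOCl replicate 3, where summed B cell markers were 16.5 CPM against 0.719 to 1.39 elsewhere in B16F10. Untreated T cell libraries held 7004 and 6283 CPM of T cell markers but also 1298 and 2409 CPM of B cell markers. The part of these markers in any result was not tested.

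Promoter sequences were read from a RefSeq table on GRCm38.p6, which spans 250 bases before and 50 after each start site and matched 33 of the 42 genes. They were searched on both strands for the 8-letter E2F consensus in its 4 forms TTTCCCGC, TTTCGCGC, TTTGCCGC and TTTGGCGC, which cannot match at the same place on 1 strand. Of the 33 promoters, 7 held it (21.2%), against 4.61% of 10686 tested genes in the table and 2.60% of all 27025 genes there. Among 15 genes that fell with HOCl in B16F10, 5 held the letters (33.3%), against 6.97% of 1707 tested genes that fell. Neither of the 2 genes that rose and were in the table held them, and of the 16 others 2 did. A match is a string of letters and no evidence of binding. The stretches are shown with 10 bases on each side, on the gene's strand, with the matched letters in capitals. The genes shown were picked for holding the letters, which most of the 33 promoters lacked. GENCODE M21 exons lie in the 200 bases before some of these start sites. For Fancg and Xrcc6 all 200 bases are exon, of Fancg and of Desi1 or Xrcc6, and their letters lie there. For Bard1 174 bases are exon, and for the first and second Rad51c sites 129 and 90, of Rad51c and of Tex14. Bard1 (chr1:71103164-71103191), Fancg (chr4:43010336-43010363), Brca2 (chr5:150522443-150522470), Xrcc6 (chr15:82016313-82016340) and Msh6 (chr17:87975055-87975082) fell with HOCl. Chek2 (chr5:110839821-110839848) and Rad51c, listed with 2 start sites (chr11:87404478-87404505 and chr11:87404942-87404969), did not pass the test.
Bard1: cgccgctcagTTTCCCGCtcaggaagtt
Fancg: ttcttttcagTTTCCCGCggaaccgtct
Brca2: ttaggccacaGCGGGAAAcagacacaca
Xrcc6: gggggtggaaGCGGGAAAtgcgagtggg
Msh6: tcctcccgacTTTCCCGCcagcggcggc
Chek2: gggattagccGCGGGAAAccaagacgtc
Rad51c, first start site: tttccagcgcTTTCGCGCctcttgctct
Rad51c, second start site: ccccgcgaggGCGGGAAAagcaaggggt

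To set a falling gene with the letters beside a falling and a rising gene without them, the 200 bases before the start site are given for Brca2 (chr5:150522421-150522620), Parp1 (chr1:180568691-180568890) and Xrcc5 (chr1:72307221-72307420), all on the plus strand. None of these windows touches an exon in GENCODE M21.
Brca2: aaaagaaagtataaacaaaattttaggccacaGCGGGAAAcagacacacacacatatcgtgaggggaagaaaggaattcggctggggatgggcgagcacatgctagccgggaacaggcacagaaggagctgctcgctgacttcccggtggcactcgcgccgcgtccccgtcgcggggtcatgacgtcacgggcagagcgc
Parp1: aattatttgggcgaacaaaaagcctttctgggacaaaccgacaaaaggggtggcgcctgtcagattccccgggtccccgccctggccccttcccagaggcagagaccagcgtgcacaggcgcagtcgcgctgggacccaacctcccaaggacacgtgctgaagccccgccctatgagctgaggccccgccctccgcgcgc
Xrcc5: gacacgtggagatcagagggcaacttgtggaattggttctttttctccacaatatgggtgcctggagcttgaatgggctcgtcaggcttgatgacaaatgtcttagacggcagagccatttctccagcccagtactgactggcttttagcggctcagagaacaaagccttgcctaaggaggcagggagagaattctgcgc

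In B16F10 cells given HOCl, 19 of the 42 genes fell and 3 rose. The uracil glycosylase Ung, the mismatch nuclease subunit Pms2 and the recombination motor Rad54l fell most, while the damage sensor Xpc and the end-joining ligase Lig4 rose most. The changes were small: no gene of the 42 moved by more than 1.68-fold. The tests were edgeR's quasi-likelihood F tests with Benjamini-Hochberg adjustment over the 16082 genes tested and a threshold of 0.05. Across all tested genes, 13.5% fell and 14.7% rose, 28.3% in all, against 45.2%, 7.14% and 52.4% of these 42. Their median log2 fold change was -0.17, beside -0.0077 over all tested genes. HOCl and untreated CPM ranges did not overlap for 18 genes lower and 5 higher with HOCl, where the shares over all tested genes were 18.4% and 25.2%. Among the 42 genes in the authors' deposited table, 19 had a negative and 3 a positive log2 fold change past 0.05, and these 22 were the genes called here, with equal signs. That table describes the same B16F10 libraries, so the match is not independent, and its groups are not named by treatment. No member of the homologous recombination, Fanconi, mismatch, base excision or checkpoint groups rose by edgeR or by DESeq2. At an unadjusted p under 0.05 that count was 1, Brca1, in recombination and 0 in the other 4 groups. Against a minimum change of 1.5-fold (edgeR's glmTreat) no member passed and 1 had an unadjusted p under 0.05. When all 9 libraries, T cells included, shared 1 fit, no member passed in either direction and 11 had an unadjusted p under 0.05, while the median over members was -0.17.

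**Figure D1:**
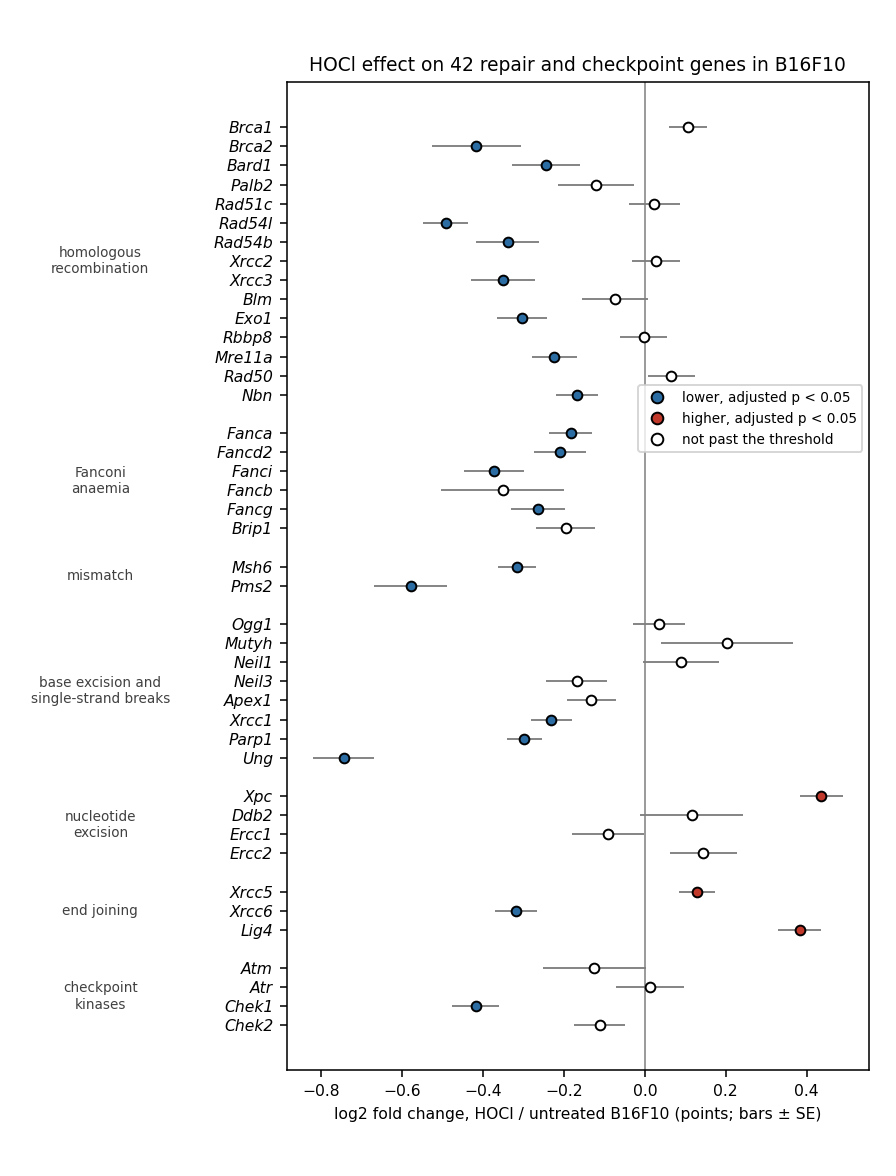
Log2 fold change of each of the 42 genes, HOCl over untreated B16F10, from edgeR's quasi-likelihood fit, with bars of 1 standard error and genes grouped by repair path. Filled points passed the adjusted threshold: 19 lie to the left of 0, from Ung at -0.75 to Nbn at -0.17, and 3 to the right, with Xpc at 0.44.

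**Figure D2:**
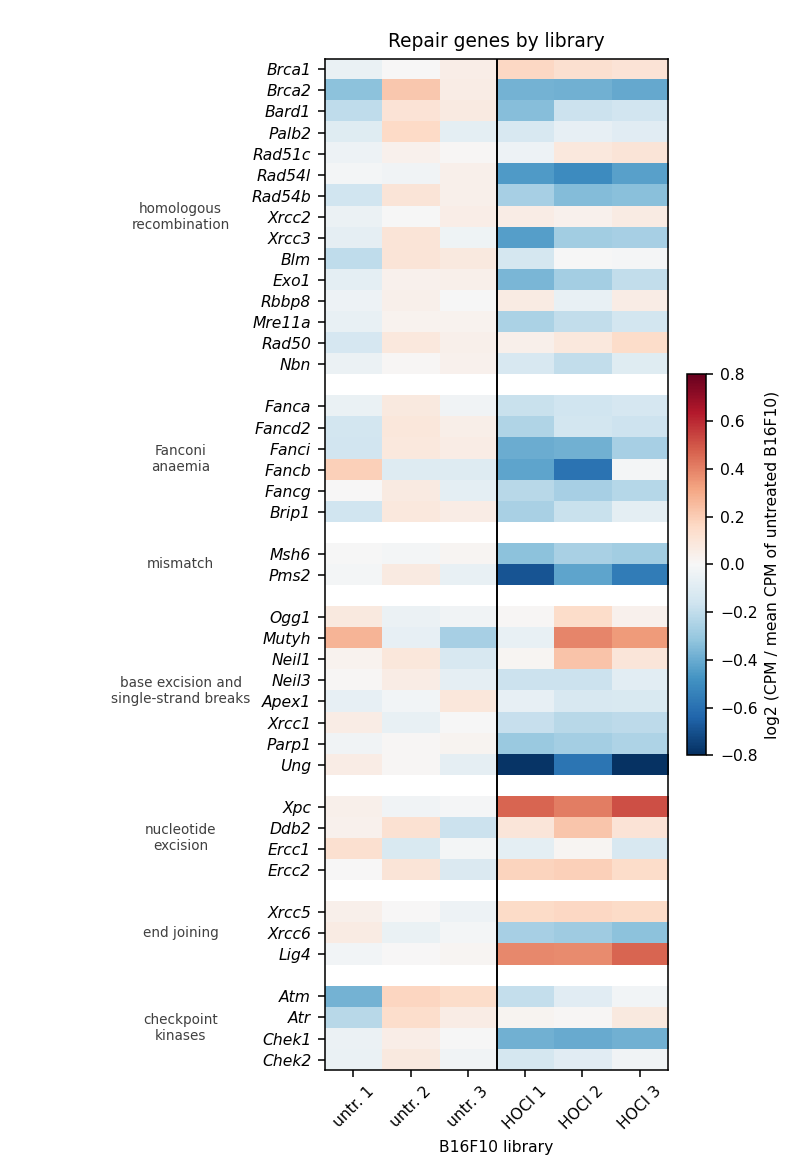
Colour gives log2 of each library's CPM over the mean CPM of the 3 untreated B16F10 libraries, for 3 untreated and 3 HOCl libraries in columns and 42 genes in rows. Blue HOCl cells mark genes such as Rad54l and Ung that were low in all 3 HOCl libraries, and untreated replicate 1 is pale or dark blue for Atm, Brca2 and Atr.

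Of the 15 homologous recombination genes 8 fell, with a median log2 fold change of -0.17. Brca2 (chr5:150522630-150570329), a large mediator that acts on single-stranded DNA at a break, stood at 29.6, 43.1 and 38.7 CPM untreated and at 28.5, 28.4 and 27.9 CPM with HOCl. Every HOCl library was below every untreated one, but untreated replicate 1 lay only just above them. The log2 fold change was -0.42 ± 0.11 (SE, adjusted p = 0.0154).

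Rad54l (chr4:116094264-116123690) encodes a motor protein that drives strand exchange, and it fell most in this group. It went from 43.6, 43.4 and 45.4 CPM to 32.2, 31.1 and 32.6 CPM, with narrow and separate groups. This was a log2 fold change of -0.49 ± 0.056 (adjusted p = 7.71e-05), or 1.41-fold lower. Its 3' neighbour on the other strand, Lrrc41, shares 15.4% of the Rad54l exon bases and had a log2 fold change of 0.32 (adjusted p = 0.00613). The strand setting of the counting is not given in the sources used here, so reads in shared bases cannot be told apart. The related Rad54b (chr4:11558922-11615805) stood at 22.2, 26.7 and 25.5 CPM untreated and at 20.6, 19.5 and 19.7 CPM with HOCl, again with no overlap (log2 fold change -0.34 ± 0.078, adjusted p = 0.00674). Fsbp, nested in it on the same strand, shares 35.8% of its exon bases and had a log2 fold change of 0.02 (adjusted p = 0.916).

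Xrcc3 (chr12:111803192-111813873), which helps resolve recombination intermediates, fell from 18.1, 20.5 and 18.6 CPM to 14.0, 15.7 and 15.9 CPM (log2 fold change -0.35 ± 0.080, adjusted p = 0.00635). Exo1 (chr1:175880581-175913489), an exonuclease that resects broken ends and also digests mismatched strands, fell from 45.1, 48.8 and 48.9 CPM to 36.9, 39.4 and 41.5 CPM (log2 fold change -0.30 ± 0.062, adjusted p = 0.00344). In both genes the lowest HOCl library was replicate 1, and the groups did not overlap.

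The other recombination genes that fell did so less. Mre11a and Nbn, the nuclease and the scaffold of the complex that first binds broken ends, had log2 fold changes of -0.22 ± 0.057 (adjusted p = 0.0114) and -0.17 ± 0.052 (adjusted p = 0.0302). Rad50, the ATPase of the same complex, had 0.07 ± 0.059 (adjusted p = 0.447) and stood at 149.6 ± 11.7 CPM untreated and 159.5 ± 6.04 CPM with HOCl (SD, n = 3 each). Bard1, the partner that BRCA1 needs as a ubiquitin ligase, had -0.24 ± 0.084 (adjusted p = 0.0467) with overlapping ranges. Bard1 and Nbn lost the call without TMM scaling and with any library left out except untreated replicate 1, and Mre11a lost it without HOCl replicate 1.

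Brca1 itself, which promotes end resection and joins PALB2 and BRCA2, did not pass (log2 fold change 0.11 ± 0.047, adjusted p = 0.109). Its CPM was 173, 179.8 and 186 untreated and 201, 197 and 194 with HOCl, so that the HOCl libraries all lay above the untreated ones. Palb2, the bridge between BRCA1 and BRCA2, had -0.12 ± 0.093 at 10.3 ± 1.06 CPM untreated. Rad51c and Xrcc2, which act in strand exchange, had 0.02 ± 0.064 and 0.03 ± 0.060, the helicase Blm -0.07 ± 0.081, and the resection factor Rbbp8, also called CtIP, -0.0031 ± 0.057, with adjusted p-values from 0.371 for Palb2 to 0.975 for Rbbp8.

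**Figure D3:**
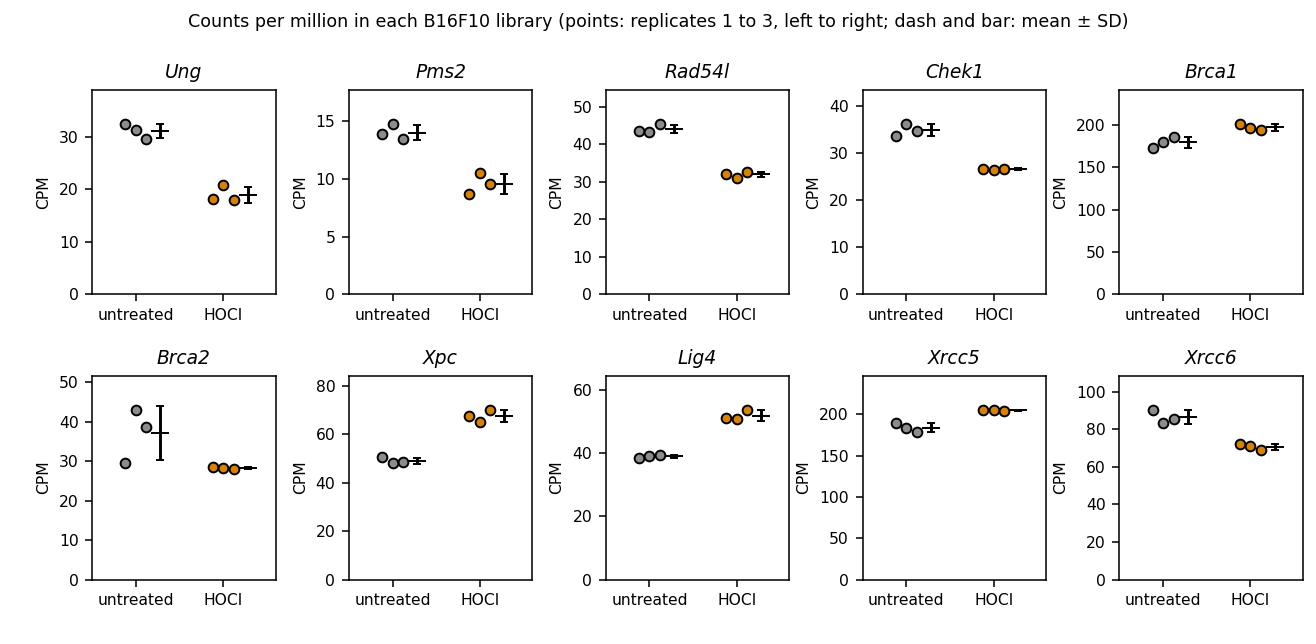
CPM of 10 repair genes in each of the 3 untreated and 3 HOCl B16F10 libraries, 1 point per library, with mean ± SD beside them and axes from 0. All 10 genes shown have separate groups, while 19 of the 42 had overlapping ranges. Over all tested genes, ranges were apart in 18.4% downward and 25.2% upward. Brca2 untreated replicate 1 (29.6 CPM) lies next to the HOCl libraries (27.9 to 28.5 CPM). Brca1, Xpc, Lig4 and Xrcc5 are higher with HOCl, of which Brca1 did not pass edgeR's test (adjusted p = 0.109).

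In the Fanconi anaemia path 4 of 6 genes fell, and all 6 estimates were below 0 (median -0.24). Fanci (chr7:79391929-79450264) forms with FANCD2 the clamp that the core complex ubiquitinates at a crosslink. It went from 30.1, 35.3 and 34.8 CPM to 25.3, 25.6 and 27.7 CPM, without overlap (log2 fold change -0.37 ± 0.074, adjusted p = 0.00281). The 3' end of Polg on the other strand shares 15.95% of the Fanci exon bases, and Polg had a log2 fold change of -0.0091 (adjusted p = 0.917). Fancg (chr4:43002343-43010506), a subunit of the core complex, stood at 25.0, 26.2 and 23.6 CPM untreated and at 21.4, 20.8 and 21.3 CPM with HOCl. That gave -0.26 ± 0.066 (adjusted p = 0.0104), and the call was lost without HOCl replicate 2.

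Fancd2, the other subunit of the clamp, had -0.21 ± 0.063 (adjusted p = 0.0264) and Fanca, a core complex subunit, -0.18 ± 0.053 (adjusted p = 0.0210). Fanca shares 10.50% of its exon bases with Zfp276 on the other strand. Fancd2 lost its call without TMM scaling and in 5 of the 6 fits with a library left out, and Fanca in 4 of them. The core subunit Fancb, at 6.12 ± 0.744 CPM untreated the least counted of the group, had -0.35 ± 0.15 (adjusted p = 0.107). Brip1, a helicase bound to BRCA1, had -0.20 ± 0.073 (adjusted p = 0.0646).

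Both mismatch repair genes fell. Msh6 (chr17:87975062-87990892), which recognises mispaired bases, stood at 110.0, 109 and 111.5 CPM untreated and at 87.8, 92.1 and 90.7 CPM with HOCl. The untreated libraries lay close together and well above the HOCl libraries (log2 fold change -0.32 ± 0.047, adjusted p = 0.000468). Pms2 (chr5:143909964-143933968), which nicks the strand to be replaced, fell from 13.9, 14.8 and 13.4 CPM to 8.70, 10.5 and 9.52 CPM. This was -0.58 ± 0.091 (adjusted p = 0.000669), or 1.49-fold lower, the second largest fall of the 42.

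In base excision and single-strand break repair 3 of 8 genes fell. Ung (chr5:114130386-114139323), which removes uracil from DNA, showed the largest change of all 42 genes. It stood at 32.4, 31.3 and 29.6 CPM untreated and at 18.0, 20.7 and 18.0 CPM with HOCl, every HOCl library far below every untreated one. The log2 fold change was -0.75 ± 0.075 (adjusted p = 3.60e-05), or 1.68-fold lower.

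Parp1 (chr1:180568924-180601254), the polymerase that marks strand breaks with poly(ADP-ribose), had the second highest level of the 42 genes per length of merged exon. Its CPM was 225, 232 and 233 untreated and 187, 190.7 and 193.5 with HOCl, again separate (log2 fold change -0.30 ± 0.043, adjusted p = 0.000401). Xrcc1, the scaffold that PARP1 brings to a break, went from 96.0 ± 3.88 to 83.3 ± 1.14 CPM (-0.23 ± 0.051, adjusted p = 0.00503).

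The glycosylases for oxidised bases among the 42 did not pass. Ogg1, which removes oxidised guanine, had a log2 fold change of 0.04 ± 0.064, Mutyh, which removes adenine paired with it, 0.20 ± 0.16, and Neil1, which removes oxidised pyrimidines, 0.09 ± 0.093. Neil3, a relative found mainly in dividing cells, had -0.17 ± 0.075 (adjusted p = 0.116), with 15.4 ± 0.692 CPM untreated and 13.9 ± 0.483 CPM with HOCl, in ranges that did not overlap. Apex1, which cuts the strand at the emptied site, had -0.13 ± 0.061 (adjusted p = 0.1304). Counts of Mutyh were low, at 4.47 ± 0.859 CPM untreated. Of the Apex1 exon bases 61.7% are shared with Pip4p1 on the other strand, so this gene's level is uncertain, and Ogg1 shares 10.6% with Camk1, which fell (-0.42, adjusted p = 0.000489).

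In nucleotide excision repair 1 of 4 genes rose and none fell, by edgeR, by DESeq2 or at an unadjusted p under 0.05. Xpc (chr6:91489305-91515888), the sensor of helix-distorting lesions and a known p53 target in human cells, stood at 50.4, 48.1 and 48.7 CPM untreated. With HOCl it stood at 67.6, 65.2 and 70.1 CPM, so the groups were far apart (log2 fold change 0.44 ± 0.053, adjusted p = 0.000128, 1.35-fold higher). Ercc2 (chr7:19382010-19395694), a helicase of the TFIIH complex, had 11.4, 12.3 and 10.6 CPM untreated and 12.9, 13.0 and 12.7 CPM with HOCl. The HOCl libraries were all higher, but the gene did not pass (0.14 ± 0.083, adjusted p = 0.222), and Klc3 and Gm26852 on the other strand share 17.8% and 24.6% of its exon bases. Ddb2, a sensor of ultraviolet damage and like Xpc left out of the list of p53 targets below, did not pass. It had 0.12 ± 0.13 (adjusted p = 0.54) at 4.14 ± 0.424 CPM untreated, and the nuclease subunit Ercc1 had -0.09 ± 0.089.

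The 3 end-joining genes all passed, 2 upward and 1 downward. Lig4 (chr8:9969049-9977686), the ligase that seals the joined ends, stood at 38.4, 39.1 and 39.4 CPM untreated and at 50.9, 50.6 and 53.7 CPM with HOCl. The untreated libraries were within 1 CPM of each other and the rise was 0.38 ± 0.054 (adjusted p = 0.000308), or 1.30-fold. Xrcc5 (chr1:72307421-72394952) and Xrcc6 (chr15:81987835-82040085) encode Ku80 and Ku70, the ring that binds a broken end as a heterodimer.

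Xrcc6 went from 90.5, 83.5 and 85.7 CPM to 72.0, 71.1 and 69.1 CPM (-0.32 ± 0.052, adjusted p = 0.000898). Xrcc5 went the other way, from 189, 183.7 and 178 CPM to 204.6, 205.6 and 203.8 CPM (0.13 ± 0.045, adjusted p = 0.0489). Both pairs of groups were separate, but the Xrcc5 call stood just inside the threshold and was lost without the count filter and in 5 of the 6 fits with a library left out. Desi1 on the other strand, which fell (-0.20, adjusted p = 0.0158), shares 7.69% of the Xrcc6 exon bases. Exons of Desi1 and Xrcc6 lie in the 200 bases before the Xrcc6 start site, where the E2F letters shown for Xrcc6 also lie.

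Among the checkpoint kinases 1 of 4 fell. Chek1 (chr9:36708482-36727065), the kinase that answers stalled replication forks, stood at 33.7, 36.2 and 34.7 CPM untreated and at 26.7, 26.4 and 26.7 CPM with HOCl. The HOCl libraries were nearly equal and all lower (-0.42 ± 0.059, adjusted p = 0.000308, 1.34-fold). Chek2 (chr5:110839979-110874145), the kinase that answers double-strand breaks, had 29.9, 32.8 and 30.4 CPM untreated and 28.1, 29.1 and 30.4 CPM with HOCl. Those ranges overlapped (-0.11 ± 0.063, adjusted p = 0.214).

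The upstream kinases Atm and Atr had log2 fold changes of -0.12 ± 0.13 (adjusted p = 0.511) and 0.01 ± 0.084 (adjusted p = 0.926). Atm stood at 53.5 CPM in untreated replicate 1 and at 78.3 and 76.9 CPM in the other untreated libraries, against 60.8, 65.4 and 68.4 CPM with HOCl. Without untreated replicate 1 the Atm estimate was -0.28 (adjusted p = 5.57e-05), and 23 of the 42 genes fell.

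Several of these proteins work as pairs, and the ratio of their counts within a library does not depend on the library total. The pairs and the order within each were chosen after the values were seen, so the direction and the separation of the groups are a description. How often the ratios of other gene pairs were separate was not counted. For single genes, CPM ranges were apart in 18.4% of tested genes downward and 25.2% upward. Mre11a and Nbn are both set over Rad50, so those pairs are not independent. Xrcc6 over Xrcc5 was 0.479, 0.455 and 0.481 untreated and 0.352, 0.346 and 0.339 with HOCl. Bard1 over Brca1 was 0.208, 0.248 and 0.233 against 0.162, 0.186 and 0.192, and Mre11a over Rad50 was 0.315, 0.287 and 0.296 against 0.244, 0.246 and 0.243. In each of these pairs the HOCl ratios lay below all untreated ratios. The same held for Fanci over Fancd2, 0.363 ± 0.00266 against 0.324 ± 0.0154, and for Nbn over Rad50, 0.473 ± 0.0264 against 0.401 ± 0.0159 (SD, n = 3 each).

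**Figure D4:**
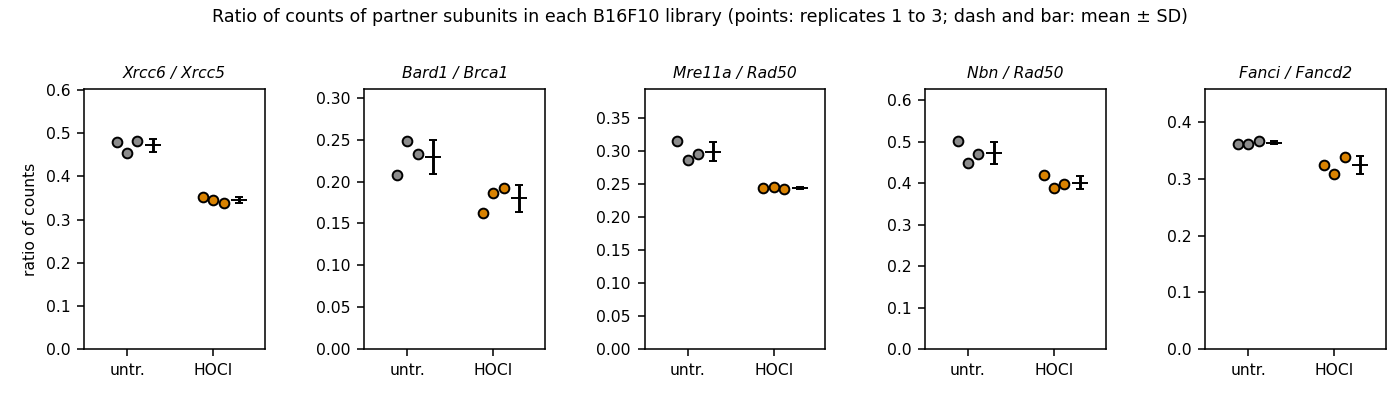
Ratio of the counts of 5 pairs of partner subunits in each untreated and HOCl B16F10 library, 1 point per library, with mean ± SD and axes from 0. HOCl points lie below the untreated points in each panel, with Xrcc6 over Xrcc5 at 0.339 to 0.352 against 0.455 to 0.481. The pairs were chosen after the values were seen.

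Repair genes outside the 42 were taken as a list of 116, of which 115 were tested in B16F10. Of these 27 fell (23.5%) and 19 rose (16.5%), with a median log2 fold change of -0.02. Over all tested genes 13.5% fell and 14.7% rose, so the share that rose was near that of all genes. The small counts by path below stand beside the same shares. Of the 31 homologous recombination genes in this list 11 fell and 3 rose. Rmi2, a partner of the BLM helicase, fell by 0.65 on the log2 scale (adjusted p = 0.000110) and Rpa3, a subunit of the single-strand binding protein, by 0.50 (adjusted p = 0.000360), while the strand-annealing gene Rad52 rose by 0.49 (adjusted p = 0.000195) and the topoisomerase Top3a by 0.21 (adjusted p = 0.0210).

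The other Fanconi and mismatch genes moved both ways. Fancc, a core complex subunit, fell by 0.31 on the log2 scale and Usp1, which removes ubiquitin from FANCD2, by 0.20, while the nuclease Fan1 and the nuclease scaffold Slx4 rose by 0.37 and 0.27, so that 2 of 10 fell and 2 rose. Of 5 other mismatch genes 2 fell, with Msh3 at -0.32, and 2 rose, Mlh3 by 0.38 and Pms1 by 0.29.

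Among 17 other base excision genes 3 fell, led by the replicative ligase Lig1 (-0.53, adjusted p = 3.41e-05) and Nudt1, which clears oxidised nucleotides (-0.41, adjusted p = 0.00333). The glycosylases Mbd4 (0.38, adjusted p = 0.00452) and Neil2 (0.31, adjusted p = 0.00928) led the 5 that rose. In nucleotide excision 4 of 16 rose, the nucleases Ercc4 by 0.28 and Ercc5 by 0.22 most, and none fell by edgeR or DESeq2, with 1 at an unadjusted p under 0.05. In end joining Xrcc4, the partner of LIG4, and Prkdc, the kinase that Ku recruits, fell by 0.36 and 0.31, and none of the 6 rose by edgeR or DESeq2, with 1 at an unadjusted p under 0.05.

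Of 20 checkpoint and break signalling genes 6 fell, led by Clspn (-0.54, adjusted p = 3.64e-05), the adaptor through which ATR activates CHK1, and Tipin (-0.45, adjusted p = 0.000206), of the fork protection complex. None rose by edgeR or DESeq2, with 2 at an unadjusted p under 0.05. In translesion synthesis and direct reversal the polymerases Poli (0.33) and Polk (0.19) were among 3 of 10 that rose, and the 1 that fell was Mad2l2 (-0.36), a subunit of polymerase zeta.

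Lists of replication, mitosis and p53 target genes are given as the setting in which the repair genes moved. Of 23 replication genes 22 fell (median -0.47), with the transcription factor E2f1 at -0.73 (adjusted p = 5.67e-06) and Gins2 of the replicative helicase at -0.66 (adjusted p = 0.000324). Of 20 mitosis genes 12 fell (median -0.20), Ccna2 and Cdk1 most, by 0.42 and 0.36 on the log2 scale. None of either list rose by edgeR, by DESeq2 or at an unadjusted p under 0.05. Of 18 p53 targets tested, a list without Xpc and Ddb2, 12 rose and none fell by any of these counts (median 0.30), Gadd45a by 0.98 and Sesn2 by 0.86. Over all tested genes 13.5% fell and 14.7% rose. The part of p53 in these rises was not tested. In bulk RNA, fewer cells in a state and less RNA per cell cannot be told apart, and the part of either in the fall of repair genes was not tested.

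Levels per length are given as CPM per kilobase of merged exon (RPKM). Merged exons join all annotated transcripts of a gene and can be longer than the transcript that is expressed. The order of genes is thus approximate. In untreated B16F10, Xrcc5 stood highest of the 42 at 71.9 RPKM, followed by Parp1 at 43.4, Nbn and Rad50 at 27.8 each, Apex1 at 27.1 and Msh6 at 25.4 RPKM. The lowest were Palb2, at 1.41 RPKM, and Atr below it, with 23629 merged exon bases, so that its place is uncertain. Xrcc6, the Ku partner of Xrcc5, stood at 19.3 RPKM.

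Untreated B16F10 cells were then compared with untreated T cells, which differ in cell type, culture and handling together, and the untreated B16F10 libraries are the same as above. Most of the 42 genes, 26, were higher in B16F10 and 7 were lower, with a median log2 difference of 1.30. Over the 18352 genes tested, 35.8% were higher and 35.4% lower, 71.1% in all, so a call alone is common, and the median over all tested genes was -0.02. All 3 end-joining genes, 11 of 15 recombination genes and 5 of 6 Fanconi genes were higher in B16F10. The 7 lower genes were Rbbp8, Pms2, Mutyh, Neil1, Ddb2, Ercc1 and Ercc2. The call of Ercc1 was lost in 7 alternative settings and that of Rbbp8 in 6, including without any 1 of the untreated B16F10 libraries. With the replicate number as a block Pms2 and Mutyh were lost too, which left 3 lower genes. The same block left 23 higher genes, without Rad50, Fancb and Xrcc1.

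The largest differences upward were in Fancd2, Exo1 and Rad54l. Fancd2 stood at 83.2 to 97.7 CPM in B16F10 and at 1.62 and 0.614 CPM in T cells (log2 difference 6.14 ± 0.43, adjusted p = 7.96e-05). Exo1 had 1.64 and 0.634 CPM in T cells (5.16 ± 0.41, adjusted p = 0.000134) and Rad54l 1.66 and 1.06 CPM (4.78 ± 0.25, adjusted p = 2.59e-05). The B16F10 values of all 3 lay far above those of T cells. Chek1, at 2.02 and 1.08 CPM in T cells, differed by 4.26 ± 0.30.

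Downward, the largest differences were in Ddb2, Neil1 and Ercc2. Ddb2 had 4.24, 4.51 and 3.68 CPM in B16F10 and 64.9 and 29.3 CPM in T cells (-3.73 ± 0.33, adjusted p = 0.000203). Acp2 on the other strand shares 23.8% of the Ddb2 exon bases and had a mean of 2280 counts in untreated B16F10 against 215 for Ddb2, so the level of Ddb2 there is uncertain. Neil1 had 9.67 to 11.3 CPM in B16F10 and 107.8 and 109.6 CPM in T cells (-3.61 ± 0.16, adjusted p = 1.41e-05). Ercc2 had 10.6 to 12.3 CPM in B16F10 against 48.5 and 22.2 CPM in T cells (-1.85 ± 0.30, adjusted p = 0.00246). These 3 excision repair genes were thus higher in T cells, although the 2 T cell libraries differed from each other by more than 2-fold for Ddb2 and Ercc2. They do not stand for excision repair as a whole. Of the 8 base excision genes 5 were higher in B16F10 and 2 lower, and of the 4 nucleotide excision genes 0 were higher and 3 lower.

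Ung, which fell most with HOCl, did not differ past the threshold between the cell types (-0.02 ± 0.31, adjusted p = 0.963), and its T cell libraries, at 18.1 and 34.2 CPM, spanned the B16F10 range. Without T cell replicate 1 it passed as lower in B16F10 (-0.43, adjusted p = 0.00342), and without T cell replicate 2 as higher (0.65, adjusted p = 0.000347). Xpc, Atm, Atr, Palb2, Fancg and Ercc1 also overlapped between the cell types, Ercc1 although it was called lower. Without T cell replicate 2 the count of lower genes was 12 in place of 7.

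**Figure D5:**
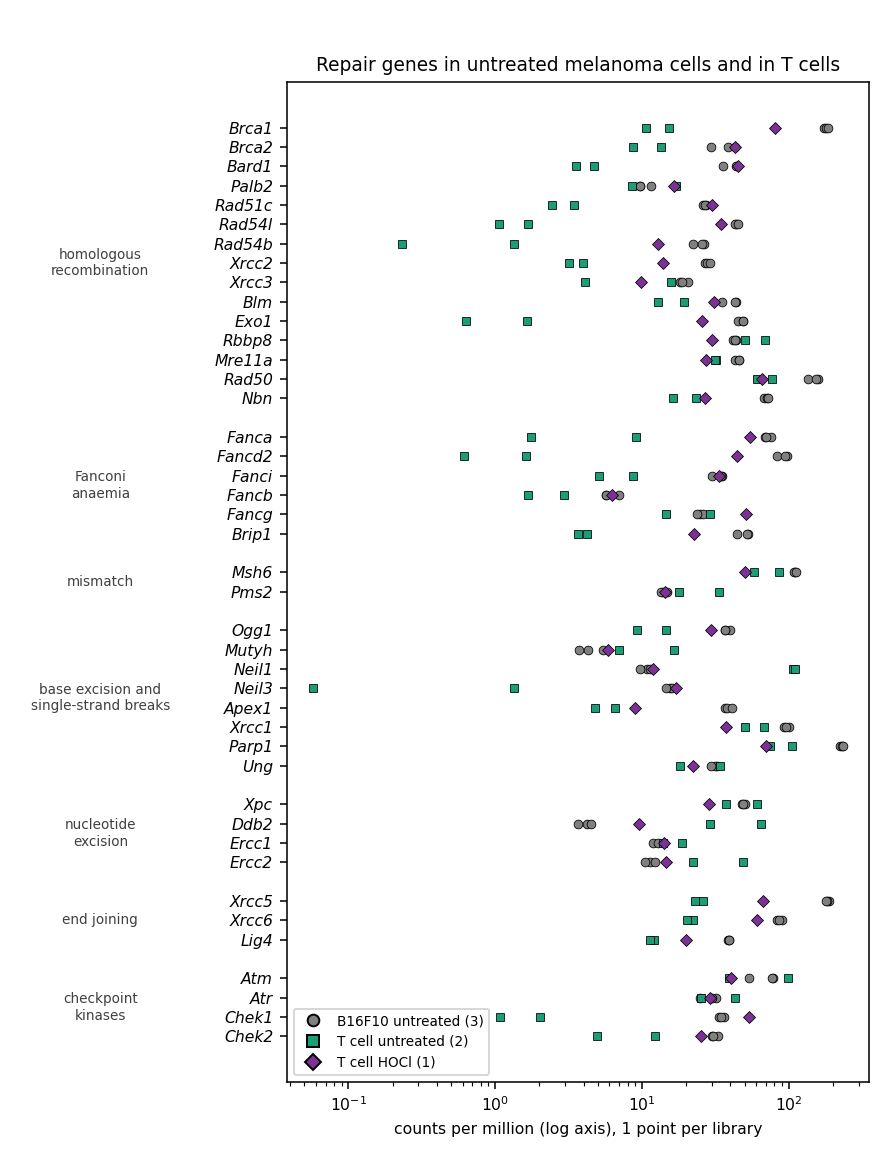
CPM on a log axis of the 42 genes in untreated B16F10 (3 libraries), untreated T cells (2) and the T cell HOCl library (1), 1 point per library, grouped by repair path. Recombination and Fanconi genes such as Fancd2 (83.2 to 97.7 CPM against 0.614 and 1.62) lie far to the right in B16F10, Ddb2, Neil1 and Ercc2 lie to the left, and the T cell HOCl points often fall between the 2 cell types.

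The T cell HOCl library was not tested, since it was the single library of its group and stood apart from the other 8. Mitochondrial transcripts took 37.4% of its counts against 1.55% and 2.11% in untreated T cells, and 44225 genes had a count there against 22855 to 25907 elsewhere. Its melanocyte markers summed to 6759 CPM, 27.0% of the untreated B16F10 mean, where untreated T cells had 102 and 25.7 CPM, and its T cell markers were 12.8% of the untreated T cell mean. Of the 42 genes, 24 lay above both untreated T cell libraries (57.1%, against 51.3% of the genes tested in B16F10), 11 below both and 7 between. The mitochondrial counts are part of the library total and so lower the CPM of every other gene in this library. Their part in these positions was not tested.

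Chek1 was at 53.6 CPM in that library (exact Poisson 95% interval 49.7 to 57.8), above every other library of either cell type. Bard1, Rad51c, Fancg and Neil3 held the same position, so that 5 of the 42 genes were above all other 8 libraries. Above all 6 B16F10 libraries were 21.4% of the 42 genes, against 35.6% of the genes tested in B16F10. Fancd2 was at 44.2 CPM (40.6 to 48.0), between untreated T cells and B16F10. Ddb2, at 9.50 CPM (7.89 to 11.3), and Neil1, at 11.8 CPM (10.0 to 13.9), lay below both untreated T cell libraries. In B16F10 those genes reached at most 4.83 and 12.4 CPM. The part of the melanocyte markers in these values was not tested.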

How the data were processed

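Raw read counts per gene, not normalised, were deposited by the authors for each library. The submitters' processing notes name STAR 2.7.1a, FastQC 0.11.8, DESeq2 1.22.2, featureCounts 1.6.0 and the mm10 build. Strand setting, annotation release and the handling of multi-mapped reads: not given in the sources used here. The authors' deposited table of B16F10 gave a log2 fold change and an adjusted p-value per gene. Its groups are not named by treatment, so signs were taken as deposited.

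Each comparison was fitted on its own libraries with edgeR 4.0.16 in R 4.3.3: filterByExpr by group, TMM scaling and quasi-likelihood F tests from a robust fit. P-values were adjusted by Benjamini-Hochberg over all genes tested, with a threshold of 0.05. The standard error (SE) is the log2 fold change over the square root of F. CPM is per 1000000 of the library total, without TMM, as mean ± SD. The scripts were tested on simulated counts. Gene models and coordinates are GENCODE M21 on GRCm38. A chi-square of counts per degree of freedom was 3.73 to 23.2 between B16F10 replicates and 393 between untreated T cell libraries, so each library counted once. The members, the lists and the rule for named genes were chosen with earlier results of these data known. All 42 genes are named. Values in every library were given for genes past the threshold with separate ranges, up to the 12 largest changes, for every gene that rose, and for at least 2 per path. Outside the 42, the 2 largest changes per list and direction were named, except for some genes not reported here. Alternatives were DESeq2 size factors, no TMM, a stricter filter (1 CPM and 50 mean counts) or none, DESeq2 1.42.0, glmTreat against 1.5-fold, all 9 libraries in 1 fit, a replicate block, each library left out, and 1 strand of the promoters.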

Additional observations from a re-analysis of the deposited data

Results flagged for a closer look

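For 13 of the 42 genes the single T cell HOCl library lay outside both untreated T cell libraries in the direction opposite to the B16F10 difference, counting genes whose HOCl and untreated ranges were apart in B16F10. That is 31.0% of the 42, and the same held for 3704 of the 16082 genes tested in B16F10 (23.0%). Only genes with ranges apart in B16F10 could be counted. These were 18 lower and 5 higher of the 42, and 2966 lower and 4050 higher of the 16082. The shares thus depend on how many ranges were apart in B16F10, and no excess among the 42 is read from them. The difference between the cell types was not tested, and 1 library has no replicate. The values in the T cell HOCl library were 43.0 CPM for Brca2, 34.8 CPM for Rad54l, 12.8 CPM for Rad54b, 25.8 CPM for Exo1 and 26.7 CPM for Nbn among recombination genes. Fanca stood there at 54.1 CPM, Fanci at 33.4 CPM and Fancg at 50.9 CPM, Neil3 at 17.0 CPM, Xrcc6 at 60.7 CPM and Chek1 at 53.6 CPM. In all of these 11 the HOCl libraries of B16F10 lay below the untreated ones, while this library lay above both untreated T cell libraries. In Xpc, at 28.8 CPM, and Ercc2, at 14.5 CPM, the positions were the other way round. Mitochondrial counts made up 37.4% of this library, against 1.55% and 2.11% in untreated T cells. They are part of the total that CPM is divided by and so lower the CPM of every other gene there. Their part in the positions of Xpc and Ercc2 was not tested. Neil3 (adjusted p = 0.116) and Ercc2 (adjusted p = 0.222) did not pass edgeR's test in B16F10, and only their ranges were apart. The same library held 27.0% of the melanocyte marker level of untreated B16F10, and the part of those markers in the 13 values was not tested.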

How the results depend on the processing

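In B16F10, 4544 genes passed, with 3 of the 42 members higher and 19 lower. Against a 1.5-fold change (glmTreat) 73 genes passed and 0 members in either direction (1 at an unadjusted p under 0.05, Ung). In 1 fit of all 9 libraries 37 genes passed and again 0 members (11 unadjusted, smallest adjusted p 0.30 for Rad54l). Leaving out 1 library each gave 3015 to 5453 genes, 2 to 3 members higher and 14 to 23 lower, and 2 higher and 16 lower without HOCl replicate 3, which held immune markers. Without TMM 4 members were higher and 16 lower. The 3 same-numbered pairs had correlations of 0.172, -0.0594 and 0.106, and not every library correlated best with its own number, so the numbers were not taken to pair samples. The replicate block gave 5293 genes, 3 members higher and 20 lower. Among genes that did not pass, the sign turned for Rbbp8 (0.024 without TMM, 0.0010 under the stricter filter, -0.025 to 0.034 with a library left out). With a library left out, Atr ran from -0.084 to 0.090, Ogg1 from -0.010 to 0.081 and Rad51c from -0.000264 to 0.066.

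Between cell types 13051 genes passed, 26 members higher and 7 lower. With the replicate block 23 were higher, without Rad50, Fancb and Xrcc1, and 3 were lower, Neil1, Ddb2 and Ercc2. Xrcc1 lost its call in 6 settings and Fancb in 4. Leaving out 1 library each gave 10932 to 15272 genes, 24 to 30 members higher and 5 to 12 lower. Signs of genes that did not pass with all libraries turned for Fancg (0.19 without TMM, 0.079 without the filter, 0.011 in the fit of 9, 0.068 with the block) and Ung (0.25, 0.085, 0.031 and 0.11 in the same order), and for Atm (0.018 without TMM). With a library left out, Fancg ran from -0.36 to 0.49, Ung from -0.43 to 0.65, Atm from -0.64 to 0.54 and Xpc from -0.45 to 0.096. With 1 T cell library left, which is assumed to vary like B16F10 libraries, some passed. Without T cell replicate 1, Fancg and Atm passed as higher in B16F10 (adjusted p = 0.00362 and 0.0150) and Ung as lower (0.00342). Without T cell replicate 2, Fancg and Atm passed as lower (0.0135 and 0.00358), as did Xpc (0.00117), and Ung as higher (0.000347). The causes were not tested. DESeq2's size factors, DESeq2's test and both other filters kept each of these counts within 1.5 times. Searching 1 strand, 4 promoters in place of 7 held the E2F letters.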

Other observations

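In untreated B16F10 replicate 1, the CPM over the mean of replicates 2 and 3 was lowest of the 42 genes for Atm (0.689), Brca2 (0.725) and Atr (0.801), which are among the 4 with at least 10000 exon bases. The 4th, Rbbp8, had 0.962, and the shorter Blm and Bard1 had 0.814 and 0.816. The median was 0.963 over the 38 shorter members and 0.996 over all genes tested. These genes and the length limit were chosen after the values were seen.

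The cell cycle homology letters TTTGAA, searched on both strands, were in 1 of the 33 member promoters (3.03%), against 14.5% of tested genes in the table and 20.2% of all genes there.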
